A study of Mus musculus with 3 samples.

Results

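Interneurons that carry both the cannabinoid receptor gene Cnr1 and the peptide gene Cck were examined in droplet single-cell RNA sequencing of the mouse medial prefrontal cortex. Members were chosen by measured values: a barcode was taken when it passed a gate for inhibitory neurons and held at least 5 UMIs of Cnr1 and at least 10 of Cck per 10000 UMIs, with under 5 of Vip, under 2 of Lamp5, under 20 of Sst and under 3 of Pvalb. A UMI is a molecular tag that counts one captured RNA molecule. The gate asked for at least 2000 UMIs, at most 15% mitochondrial UMIs, and, per 10000 UMIs, at least 4 of Gad1 plus Gad2, under 1 of Slc17a7 and at most 2 of C1qa, Cldn5, Mog and Gja1 together. Of 52083 barcodes in the 3 deposited libraries, 795 passed the gate and 52 were members, with 17 in estrus, 17 in diestrus and 18 in the male library.

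Each library came from 2 mice whose tissue was combined: female mice in estrus, female mice in diestrus, and male mice. No strain, age or genotype is stated in the labels. The tissue was digested with papain, cleaned on Percoll and loaded at 15000 cells a library on a 3′ chemistry. The labels call the cells neurons of the medial prefrontal cortex, although the protocol describes no sort for neurons. One library per state means that the estrous stages and the sexes are compared here as single libraries, without a test.

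Interneurons with Cck and Cnr1 are one of the main kinds of basket cell in the cortex. They contact the cell bodies of pyramidal neurons, and the cannabinoid receptor on their terminals lets endocannabinoids made by the target cell turn down GABA release. In atlases of the mouse cortex they form a subclass named after Sncg, the gene for gamma-synuclein, and they arise from the caudal ganglionic eminence (CGE), as do the Vip and Lamp5 interneurons. The Sst and Pvalb interneurons arise from the medial ganglionic eminence (MGE).

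The members were deeply sequenced cells. Their median UMI count was 38070 for estrus, 29214 for diestrus and 24258.5 for the male library, with extremes of 2470 and 85178, and the median number of genes was 7382, 6439 and 5923. Summed over the members, the nuclear-encoded genes gave 633677, 505364 and 453169 UMIs. No barcode was shared between members of different libraries, although 68 to 97 barcodes of each library pair were, and the highest Scrublet doublet score of a member was 0.114, under the limit of 0.3. Members made up 10.2% of the gated cells in estrus (95% exact Clopper-Pearson interval 6.04 to 15.8, 17 of 167), 5.28% in diestrus (3.11 to 8.32, 17 of 322) and 5.88% in the male library (3.52 to 9.14, 18 of 306). The intervals overlap between libraries and cover counting error only. When every barcode was first thinned to 2000 UMIs, the shares were 10.9%, 4.57% and 6.42%.

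The levels of Cnr1, Cck, Vip and the other genes by which members were selected are a description. Cnr1 lay between 11.8 and 105 UMIs per 10000 in the 52 cells with a median of 37.4, and Cck between 10.3 and 311 with a median of 40.7. The Cck limit passed close to its members, since the lowest member in diestrus had 10.3 UMIs of Cck per 10000 and the nearest excluded barcode 9.39. No member lay near the Cnr1 limit: the nearest values inside and outside it were 11.8 and 2.11 for estrus, 14.7 and 4.20 for diestrus, and 12.1 and 3.92 for the male library. The Vip limit removed the most barcodes that met every other criterion in diestrus and male (28 and 22, against 13 in estrus), and one male member had 4.83 UMIs of Vip per 10000 beside an excluded barcode with 5.21.

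Most members carried markers of the label that the rule did not use. Of the others, 2 estrus members held genes of other classes, and some estrus members held few UMIs of genes that led the class contrasts below. Adarb2, an RNA-editing family gene that marks CGE interneurons, had at least 3 UMIs in 52 of 52 members, the chemokine gene Cxcl14 in 45, the CGE transcription factor gene Npas1 in 42 and the nuclear receptor gene Nr2f2 in 37. As a measure of background, a UMI of Adarb2 was found in 3 of 42, 3 of 48 and 1 of 57 Sst interneurons and one of Cxcl14 in 2, 4 and 4 of them, at median depths of 35063.5, 22761.5 and 20071 UMIs. Npas1 and Nr2f2 mark less sharply, since 29, 34 and 31 of the Sst interneurons had a UMI of Npas1 and 15, 24 and 21 one of Nr2f2. Lhx6 and Sox6, which specify MGE interneurons, had a UMI in 1 member each. Sncg had a UMI in 35 members (11 in estrus, 10 in diestrus, 14 in male) and at least 3 UMIs in 28. The 17 members at 0 for Sncg were shallower cells, with a median of 16894 UMIs against 38952 in the other 35, and the part of depth in these zeros was not tested. One estrus member without Sncg had 31 UMIs of Calb2, 16 of Tac2 and 11 of Penk, genes of Vip interneurons, though no Vip, and another had 41 UMIs of Ndnf, a gene of Lamp5 interneurons. These were the members with at least 3 UMIs of Calb2 or Ndnf, and results that move without them are given with both values. Further estrus members held few UMIs of Sncg, Cadps2 and Col25a1, genes that led the class contrasts below. In that order these members had 0/1/0, 2/0/3, 2/0/0, 0/3/2, 0/0/8 and 3/2/1 UMIs, while a deeper estrus member had 68/155/122. The 2 members with Calb2 and with Ndnf had 0/6/0 and 0/0/4. When those 2 were left out, the other members with few UMIs stayed in. Their part in the estrus share of gated cells, in the estrus sums and in the library pairs was not tested on its own. Markers of the nearest classes were present: the Vip markers (Vip, Calb2 and Tac2) summed to 1408, 190 and 1046 CPM (UMIs per 1000000) in the estrus, diestrus and male members, the order used from here on, against 13260 to 21367 CPM in Vip interneurons. The Lamp5 markers, with Npy and Reln, summed to 1173, 726 and 1095 CPM against 10871 to 19504 CPM in Lamp5 interneurons. These sums include Vip and Lamp5, which were limited in members and required in the other class, so the gaps were in part fixed in advance. For the Vip markers that the rule did not use, the log2 differences from Vip interneurons were -5.26 for Calb2 and -1.75 for Tac2, as described below. Markers outside the interneurons were lower: the 5 glutamatergic markers summed to 15.8, 7.92 and 15.5 CPM, and the 2 markers of oligodendrocyte precursors were at 0. Astrocyte markers summed to 37.5 to 50.5 CPM, oligodendrocyte markers to 59.97 to 66.2, microglial markers to 22.1 to 29.98, and endothelial markers to 17.4, 5.94 and 68.4 CPM, highest in the male members. Apart from the oligodendrocyte precursor markers, each of these sums includes a gene that the gate limited (Slc17a7, Gja1, Mog, C1qa or Cldn5). Their low values were therefore in part fixed.

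**Figure D1:**
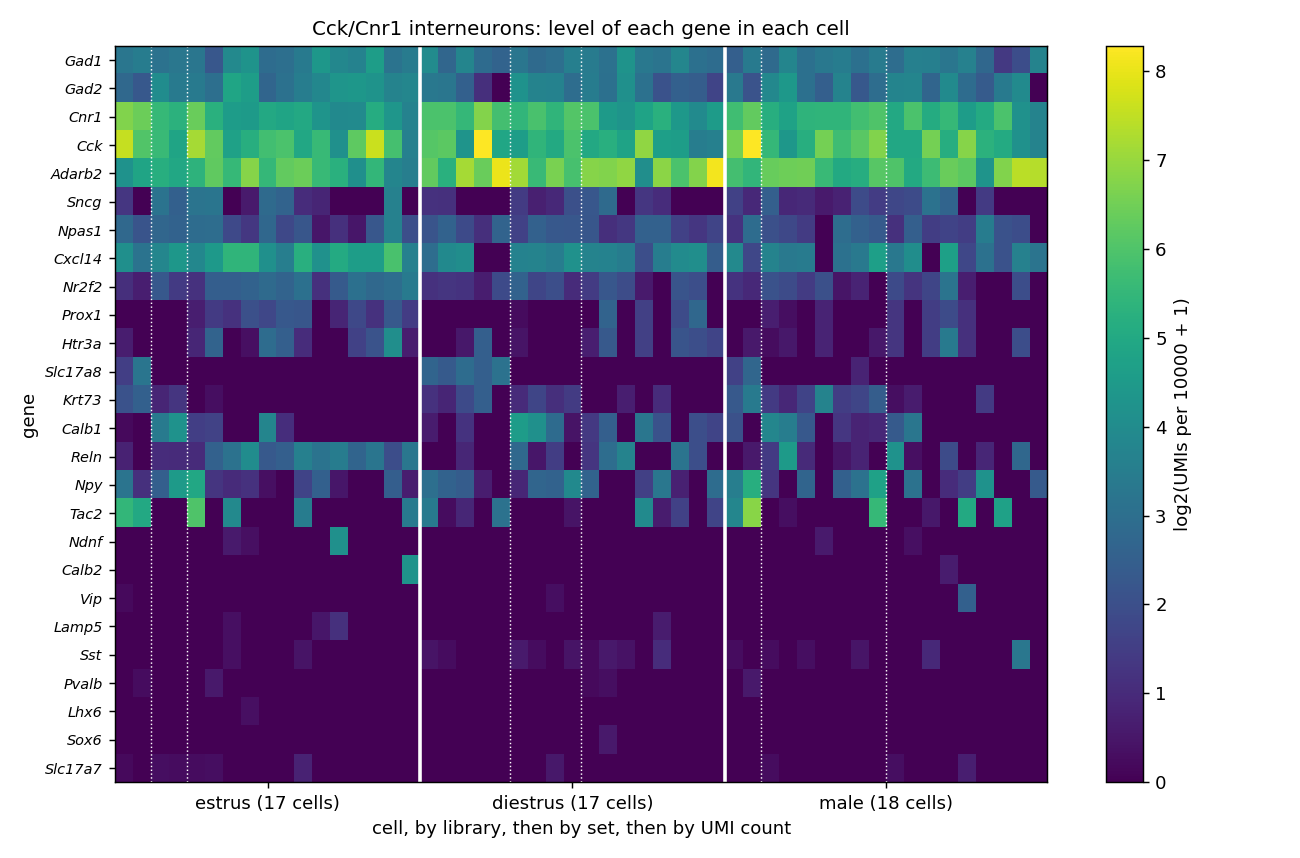
Levels of 26 genes (rows) in each of the 52 members (columns), as log2(UMIs per 10000 + 1). Cells are ordered by library, then by the 3 expression sets divided by dotted lines, then by UMI count; Cnr1, Cck and Adarb2 fill every column, while Sncg, Krt73, Slc17a8, Htr3a, Reln and Calb1 are patchy.

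The promoters of Sncg and Cck are shown because these genes name the cells and share one short element. The windows run from 250 bases before to 50 bases after the RefSeq start site in GRCm38.p6, written 5′ to 3′ on the gene's strand, and capitals mark the letters TGCGTCA, an element known in the CCK promoter that cAMP- and calcium-responsive factors bind. Sncg lies on the minus strand at chr14:34374620-34374919 and Cck on the minus strand at chr9:121495645-121495944.
Sncg: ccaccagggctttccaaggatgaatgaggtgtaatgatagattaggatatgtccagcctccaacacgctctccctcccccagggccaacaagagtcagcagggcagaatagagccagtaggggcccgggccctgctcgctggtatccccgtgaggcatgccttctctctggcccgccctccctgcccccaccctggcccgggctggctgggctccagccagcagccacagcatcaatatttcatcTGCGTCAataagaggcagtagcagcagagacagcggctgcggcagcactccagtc
Cck: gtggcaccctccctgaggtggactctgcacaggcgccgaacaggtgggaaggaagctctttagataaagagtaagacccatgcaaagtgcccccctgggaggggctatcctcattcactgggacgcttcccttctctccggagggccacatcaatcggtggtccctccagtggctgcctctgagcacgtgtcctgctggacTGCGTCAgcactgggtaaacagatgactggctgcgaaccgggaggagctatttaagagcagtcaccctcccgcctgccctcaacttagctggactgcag
The match began 5 bases before the start site in Sncg and 49 bases before it in Cck. The motif was searched after the Sncg and Cck sequences had been seen, on both strands. Over all 27025 genes with a promoter, 2.42% held TGCGTCA, 2.03% held the cAMP response element TGACGTCA and 18.1% held AGGTCA, which nuclear receptors recognise. Among the 77 genes that were higher in the members in all 3 class contrasts described below, 54 had a promoter in the table, and 1, 0 and 7 of those held the 3 motifs, so no motif was common in them. A match is a description of letters and not a binding site.

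To see what sets these cells apart, the UMIs of each class were summed within each library and compared with the Vip interneurons (178 cells), the Lamp5 interneurons (33 cells) and the mean of the Sst and Pvalb interneurons (147 and 43 cells). The other classes were taken from the same gate by Vip, Lamp5, Sst or Pvalb. The 3 libraries served as replicates of a class, with the library as a block in edgeR's quasi-likelihood test, and a gene was called at an adjusted p under 0.05 and a difference of at least 2-fold. The 13 genes of the rule and the mitochondrial genes were left out, but genes that vary together with the rule's genes were in part fixed by it. Of 8931 genes tested, 257 (2.88%) were higher and 565 (6.33%) lower than in Vip interneurons. Against Lamp5 interneurons 423 (4.74%) were higher and 449 (5.03%) lower, and against Sst and Pvalb interneurons 507 (5.68%) were higher and 581 (6.51%) lower. The 77 genes higher in all 3 contrasts were 30.0%, 18.2% and 15.2% of the higher genes of each, and 102 genes were lower in all 3; the 3 contrasts share the members' own sums. Without the 2 members with Calb2 or Ndnf the contrasts called 850, 898 and 1113 genes, beside 822, 872 and 1088. In this main fit, more genes were lower than higher over all genes in every contrast. Without a filter on low counts the balance against Lamp5 interneurons turned, at 585 higher and 488 lower. Each list count below, whichever way it leans, is read beside the shares of the main fit.

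Genes of the atlas subclass led the differences. Of 10 tested genes from a list of 14 for this subclass, 8 were higher than in Vip interneurons, 9 than in Lamp5 and 9 than in Sst and Pvalb interneurons, with none lower. The list's median log2 differences were 2.91, 5.86 and 8.08, against 0.01, 0.01 and 0.03 over all genes. The list describes this subclass in published work and was picked with earlier results of these data known, so its direction carries no independent weight.

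Sncg read 388, 188 and 234 CPM in the estrus, diestrus and male members. In Vip interneurons it was at 48.7, 48.0 and 18.9 CPM, and no UMI of it was seen in Sst or Pvalb interneurons. The groups did not overlap, and Sncg was 2.66 log2 units higher than in Vip interneurons (SE 0.26, adjusted p = 2.8e-07) and at least 480-fold higher than in Sst and Pvalb interneurons, taking 3 counts over the whole group as the limit.

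Krt73, a type II keratin gene known in cortex as a marker of these cells, read 96.3, 111 and 291 CPM. Its 249 UMIs all lay in members, since Vip, Lamp5, Sst and Pvalb interneurons had none in any library. The lower bounds are 129-fold against Vip, 34.6-fold against Lamp5 and 268-fold against Sst and Pvalb interneurons. With DESeq2 the calls on Krt73 were lost (adjusted p = 0.19, 0.39 and 0.092), and these values stand beside edgeR's adjusted p of 4.2e-09, 6.2e-07 and 7.8e-11.

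Slc17a8, which encodes the vesicular glutamate transporter VGLUT3, read 85.2, 150 and 50.8 CPM. No UMI of Slc17a8 was found in Vip or Lamp5 interneurons, which puts the members at least 79.2-fold and 21.2-fold higher. Against Sst and Pvalb interneurons, at 0 to 3.42 CPM, the difference was 6.37 log2 units (SE 0.39, adjusted p = 2.1e-10). Its UMIs came from few cells, as described for the expression sets below.

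Cadps2, which primes dense-core vesicles that carry peptides, read 1083, 2287 and 1496 CPM in members and 163, 115 and 236 CPM in Vip interneurons, a difference of 3.17 log2 units (SE 0.24, adjusted p = 1.2e-09). In Lamp5 interneurons 1 UMI of Cadps2 was counted against 2520 in members. Col25a1, a membrane collagen gene, read 598, 1755 and 1117 CPM and was 4.02 log2 units above Vip interneurons (SE 0.32, adjusted p = 3.3e-09). Kctd12, an auxiliary subunit of GABA-B receptors, read 707, 1419 and 863 CPM and stood 3.72 (SE 0.19), 7.34 and 6.21 log2 units above the Vip, the Lamp5, and the Sst and Pvalb interneurons. In each of these genes the lowest member library lay above the highest library of every other class.

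The other genes that led a contrast were less familiar in these cells. Against Vip interneurons Bmp3, a growth factor gene (90 UMIs against 2, ratio 69.9, counting interval 18.8 to 586), Csrp2 (141 against 12), and Sln, the calcium pump regulator sarcolipin (195 against 6), were among the 8 largest increases. The call on Sln against Vip interneurons was lost with DESeq2, at an adjusted p of 0.0606. Against Lamp5 interneurons Syt6, a synaptotagmin, was at least 43.2-fold higher, Stxbp6 at least 41.5-fold, Clic4 at least 24.8-fold, Megf10 at least 21.6-fold and Epb41l4a at least 19.4-fold. Against Sst and Pvalb interneurons Frem1 was at least 304-fold and Sln at least 210-fold higher, and Tnfaip8l3 had 219 UMIs against 1, a ratio of 706 with a counting interval of 125 to 28020.

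**Figure D2:**
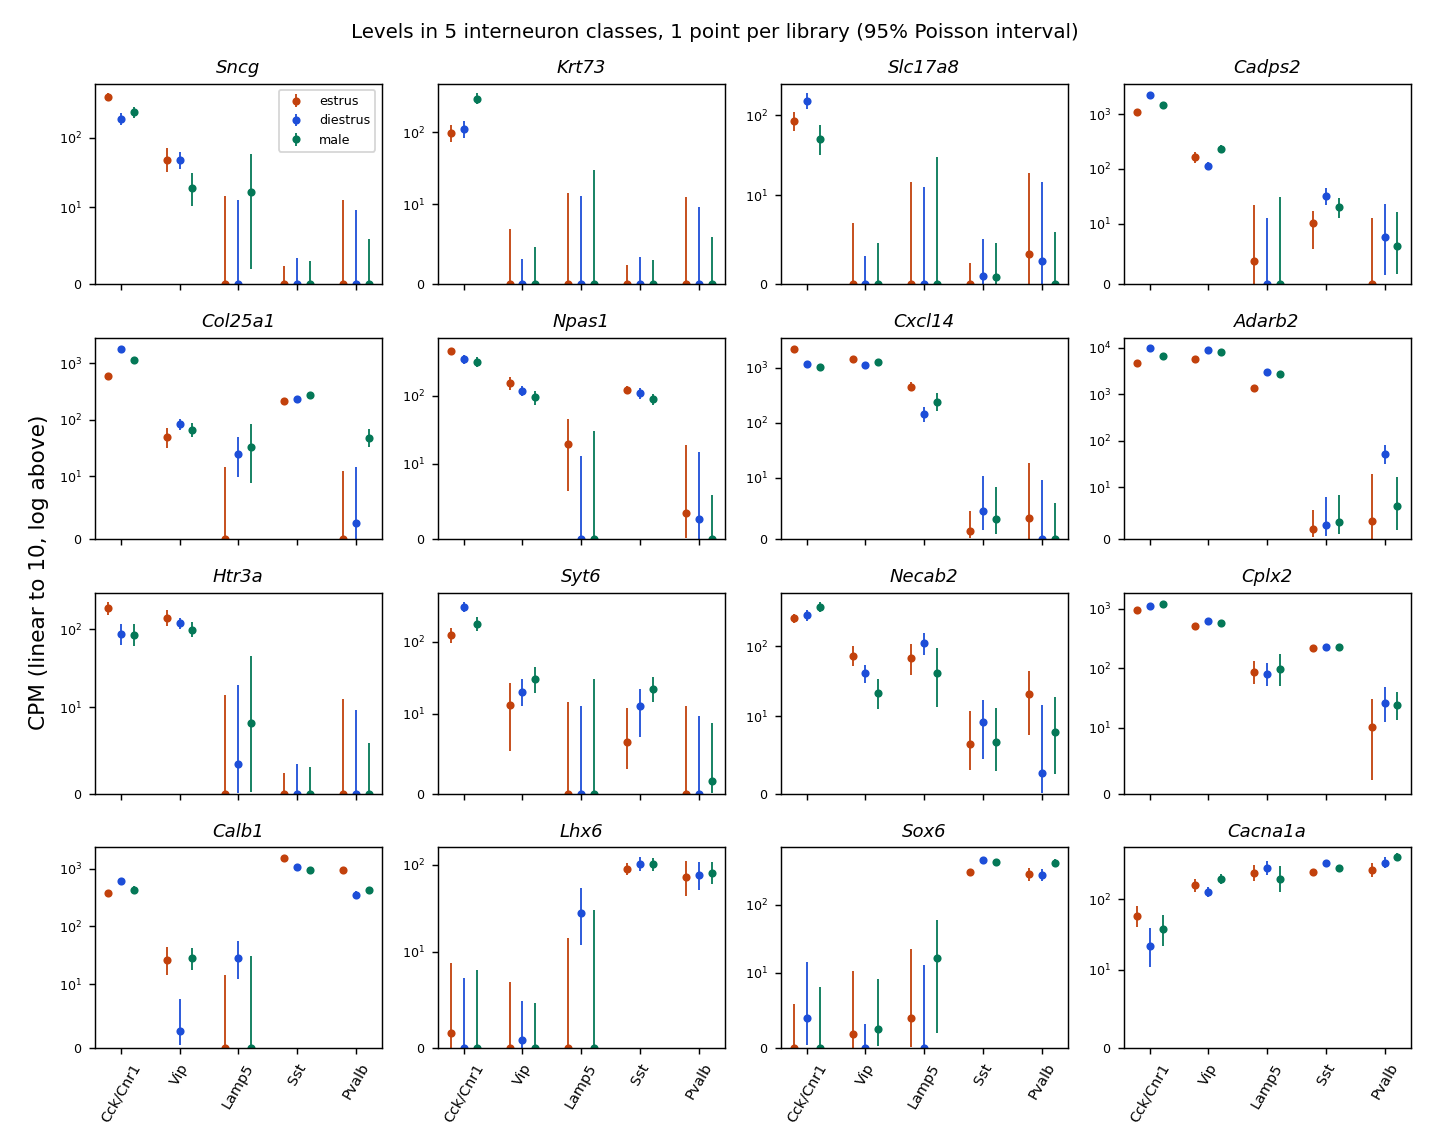
CPM of 16 genes in 5 interneuron classes, one point per library with its 95% Poisson interval (counting error only), on an axis that is linear to 10 CPM and logarithmic above. Sncg, Krt73, Slc17a8, Cadps2 and Col25a1 are highest in the Cck/Cnr1 members, Adarb2 and Cxcl14 are as high in Vip interneurons, and Cacna1a is lowest in the members.

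The genes of developmental origin placed the members with the CGE classes and nearest the Vip interneurons. All 6 tested CGE genes were higher than in Sst and Pvalb interneurons and 5 of 6 higher than in Lamp5, but against Vip interneurons 1 was higher (Npas1) and 1 lower (Prox1). Of the 5 MGE genes, 4 were lower than in Sst and Pvalb interneurons. The CGE list summed to 5788, 10404 and 7227 CPM in the members and to 192, 198 and 177 CPM in Sst interneurons, a gap far wider than the spread between libraries. Adarb2 makes up most of that sum. It read 4575, 9623 and 6505 CPM, 9.88 log2 units above Sst and Pvalb interneurons (SE 0.22) and 0.23 below Vip interneurons, where the test was not passed (SE 0.17, adjusted p = 0.40). Cxcl14 read 2209, 1156 and 1037 CPM and overlapped with Vip interneurons, at 1460, 1143 and 1308 CPM, again without passing the test (0.02 log2 units, SE 0.18, adjusted p = 0.95).

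Prox1 and Npas1 divided the members from Vip interneurons in opposite directions. Prox1, a homeobox factor needed for CGE interneurons, read 128, 69.3 and 53.0 CPM against 313, 349 and 396 in Vip interneurons, 2.11 log2 units lower (SE 0.21, adjusted p = 8.9e-08). Npas1, a bHLH-PAS repressor, read 454, 344 and 311 CPM against 154, 118 and 94.6, which is 1.54 log2 units higher (SE 0.16, adjusted p = 2.1e-07). The groups did not overlap for either gene. Over the list of 19 tested interneuron transcription factors, 1 was higher and 3 lower than in Vip interneurons, 5 higher and 3 lower than in Lamp5, and 7 higher and 6 lower than in Sst and Pvalb interneurons.

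Calcium handling differed strongly from the Vip interneurons, and every tested calcium buffer gene changed there. Of 7 genes, 3 were higher and 4 lower than in Vip interneurons. Calb1, the buffer calbindin, read 382, 598 and 430 CPM in members and 26.2, 2.62 and 27.8 CPM in Vip interneurons, 4.77 log2 units higher (SE 0.44, adjusted p = 2.4e-08). Its level did not differ past the threshold from the mean of Sst and Pvalb interneurons (0.70 log2 units lower, SE 0.27, adjusted p = 0.063). Calb2, the buffer calretinin known from Vip bipolar cells, had the opposite pattern at 48.9, 0 and 2.21 CPM against 843, 517 and 551 CPM, a log2 difference of -5.26 (SE 0.37, adjusted p = 6.2e-10). All estrus UMIs of Calb2 came from the one member named above; without the 2 members with Calb2 or Ndnf the estrus level was 0 and the log2 difference -9.70. Necab1 and Necab2, neuronal EF-hand proteins, were higher in all 3 contrasts. Necab2 read 252, 277 and 366 CPM, against 21.4 to 73.1 CPM in Vip, 40.9 to 112 in Lamp5 and at most 20.5 in Sst and Pvalb interneurons, so no other class reached the lowest member library.

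Among 13 voltage-gated calcium channel genes, 2 were higher and 3 lower than in Vip interneurons, 2 and 3 against Lamp5, and 6 and 3 against Sst and Pvalb. The shares of all genes were 2.88%, 4.74% and 5.68% higher and 6.33%, 5.03% and 6.51% lower. Cacna1a, the pore of the P/Q-type channel that drives release at many fast synapses, was lower in all 3 contrasts: it read 58.4, 21.8 and 37.5 CPM in members and 126 to 399 CPM in the 12 sums of the other classes. The log2 differences were -2.02 (SE 0.25), -2.58 (SE 0.28) and -2.89 (SE 0.23), with adjusted p of 2.8e-06, 2.5e-07 and 6.3e-10. Cacna1e, the pore of the R-type channel, was lower too, at -2.36, -2.24 and -1.47 log2 units. Cacnb3, a beta subunit, was higher in all 3 contrasts (1.31, 1.06 and 1.34 log2 units) at 42.6, 61.3 and 72.8 CPM.

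Of 17 tested genes of transmitter release, 2 were higher and 0 lower than in Vip interneurons, 3 and 3 against Lamp5, and 4 and 3 against Sst and Pvalb interneurons. The counts are small, but apart from the 0 they lie above the shares of 2.88% to 6.51% called in all genes. Cplx2, a complexin that clamps and promotes vesicle fusion, read 960, 1084 and 1198 CPM in members, 500, 607 and 565 in Vip, 80.1 to 98.2 in Lamp5 and at most 230 in Sst and Pvalb interneurons. It was 3.64 log2 units above Lamp5 (SE 0.17, adjusted p = 1.1e-12) and 3.99 above Sst and Pvalb interneurons (SE 0.13, adjusted p = 8.0e-17). Against Vip interneurons it was higher by 0.89 (SE 0.12, adjusted p = 1.0e-05), short of the 2-fold needed for a call. Syt6 read 123, 301 and 179 CPM and was 3.23 log2 units above Vip interneurons (SE 0.26).

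Few endocannabinoid genes other than Cnr1 were called. None of the 8 tested (of 9 listed) was called against Vip or Lamp5 interneurons, and against Sst and Pvalb 1 was higher and 1 lower. Over all genes 2.88%, 4.74% and 5.68% were higher and 6.33%, 5.03% and 6.51% lower. With 8 genes, such counts do not set the list apart from all genes. Mgll, which breaks down the endocannabinoid 2-AG, read 267, 222 and 210 CPM and was 1.27 log2 units above Sst and Pvalb interneurons (SE 0.12, adjusted p = 2.7e-08). Cnrip1, a protein that binds the tail of the receptor, read 137, 125 and 132 CPM and ranged from 89.2 to 204 CPM in the other classes without a call. Cnr1 itself chose the cells, and its 4737, 5026 and 4517 CPM are given as a description.

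**Figure D3:**
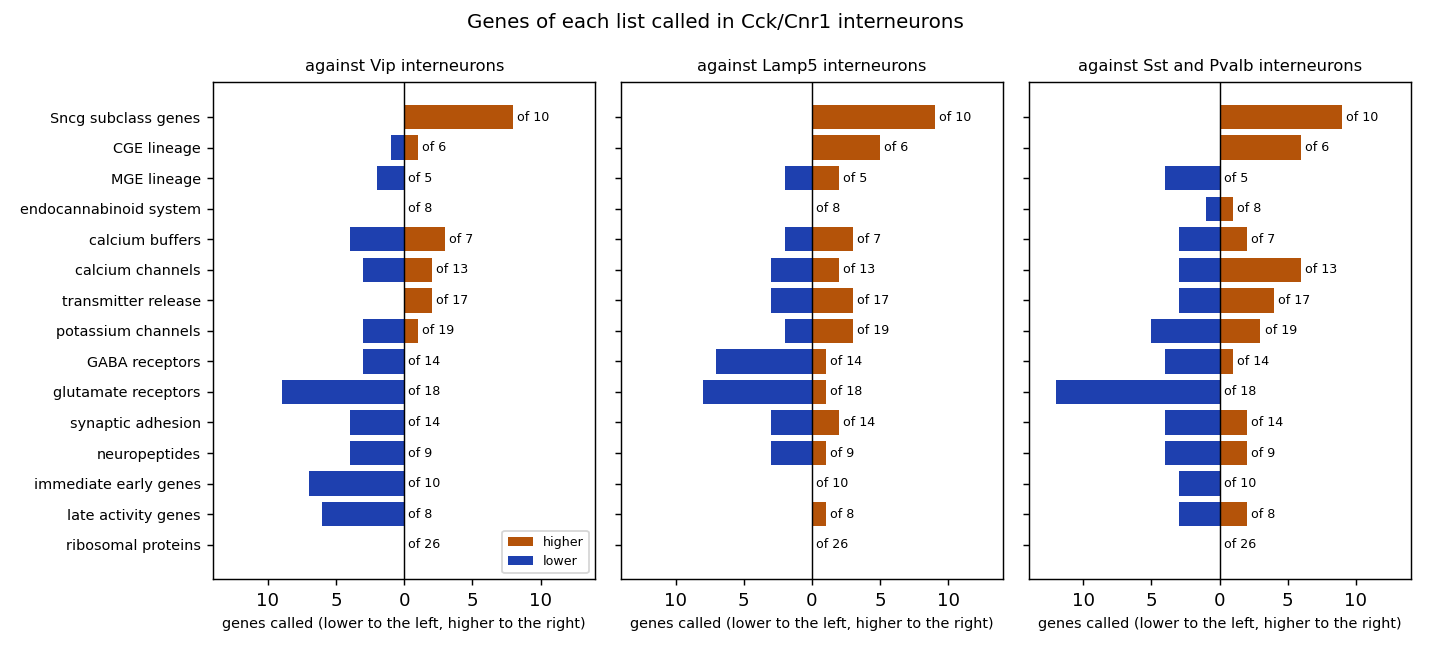
Number of genes called higher (right) or lower (left) in the members for 15 gene lists in each of the 3 class contrasts, with the number tested beside each list. Glutamate receptors lean to lower in all 3 contrasts, immediate early genes are called lower against Vip (7 of 10) and against Sst and Pvalb interneurons (3 of 10) and not against Lamp5, and ribosomal protein genes have no call.

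Of 18 glutamate receptor genes, 0 were higher and 9 lower than in Vip interneurons, 1 and 8 against Lamp5, and 0 and 12 against Sst and Pvalb interneurons. Over all genes the shares called lower were 6.33%, 5.03% and 6.51%. The medians were -1.0, -0.23 and -1.51 log2 units, beside 0.01, 0.01 and 0.03 over all genes. Gria2, the AMPA receptor subunit that limits calcium entry, read 207, 303 and 227 CPM, while the 12 sums of the other classes read 363 to 748 CPM. Its log2 differences were -1.57 (SE 0.14), -1.07 (SE 0.15) and -1.12 (SE 0.13). Grm7, a presynaptic metabotropic receptor, read 59.97, 45.5 and 26.5 CPM against 1259, 1481 and 1514 CPM in Vip interneurons, a log2 difference of -4.99 (SE 0.29, adjusted p = 3.2e-11). Neto1, an auxiliary subunit of kainate receptors outside that list, went the other way: it read 589, 1074 and 838 CPM and was higher by 2.55, 3.36 and 1.78 log2 units in the 3 contrasts.

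Of 14 GABA receptor genes, 3 were lower than in Vip, 7 lower than in Lamp5 and 4 lower than in Sst and Pvalb interneurons, and 0, 1 and 1 were higher, where the same shares of all genes apply. Gabrg3, a gamma subunit of GABA-A receptors, was lower by log2 values of -2.23, -3.12 and -2.09, with 59.97, 83.1 and 152 CPM in members.

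Ion channels and adhesion molecules added a few large single-gene differences. Of 19 potassium channel genes 1, 3 and 3 were higher and 3, 2 and 5 lower in the 3 contrasts. Kcnmb2, a subunit that inactivates BK channels, read 59.97, 31.7 and 50.8 CPM against 201 to 612 CPM in the other classes and was lower at -3.14, -2.66 and -3.21 log2 units. Il1rapl1, a synaptic organiser, read 140, 182 and 159 CPM and was lower at -2.32, -2.68 and -2.63. Nxph1, a neurexin ligand, read 23.7, 15.8 and 6.62 CPM against 942 to 1986 CPM in Lamp5, Sst and Pvalb interneurons, while the Vip interneurons at 9.37 to 24.4 CPM overlapped with the members. Of 14 adhesion genes 0, 2 and 2 were higher and 4, 3 and 4 lower. For both lists, all genes gave 2.88%, 4.74% and 5.68% higher and 6.33%, 5.03% and 6.51% lower.

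Several peptide genes of Vip interneurons were low in the members. Of 9 tested neuropeptide genes, 0 were higher and 4 lower than in Vip interneurons, beside 2.88% and 6.33% of all genes. Crh, corticotropin-releasing hormone, had 3 UMIs in all members against 1996 in Vip interneurons, a ratio of 0.00233 with a counting interval of 0.00048 to 0.00683. Penk, the enkephalin precursor, read 18.9, 0 and 0 CPM against 459, 378 and 464 CPM (log2 difference -5.94, SE 0.43, adjusted p = 7.7e-10), and 91.7% of its estrus UMIs came from the member with Calb2, without which and the member with Ndnf the difference was -9.10. Tac2, which encodes neurokinin B, varied by library at 1357, 188 and 1026 CPM, and all 3 lay under the 2475, 2396 and 1968 CPM of Vip interneurons (-1.75 log2 units, SE 0.40, adjusted p = 0.0027). Npy read 628, 451 and 655 CPM, far under the 8300 to 17076 CPM of Lamp5 interneurons, and its log2 difference from Vip interneurons, whose libraries spread from 102 to 1557 CPM, did not pass (-0.27, SE 0.49, adjusted p = 0.76). Reln, the secreted glycoprotein reelin, read 467, 273 and 432 CPM, 2.09 log2 units above Vip (SE 0.25) and 1.62 below Lamp5 interneurons.

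Npy1r, Htr2c and Htr3a, receptors for peptide or serotonin, were high beside the Lamp5, Sst and Pvalb interneurons and were not called against Vip interneurons. Of 9 tested peptide receptor genes, 0, 2 and 4 were higher and 1, 1 and 3 lower in the 3 contrasts. For 6 tested serotonin receptor genes the counts were 0, 2 and 2 higher and 2, 2 and 2 lower. All genes gave 2.88%, 4.74% and 5.68% higher and 6.33%, 5.03% and 6.51% lower. Htr1f, a serotonin receptor gene at a mean of 11.7 CPM, was lower in all 3 contrasts, with a smallest log2 difference of -1.76. Npy1r, a neuropeptide Y receptor, read 88.4, 109 and 146 CPM, 5.28 log2 units above Sst and Pvalb interneurons (SE 0.29), and Htr2c, a serotonin receptor, read 122, 148 and 234 CPM, 5.67 above Lamp5 interneurons (SE 0.51). Htr3a, the ion channel receptor of serotonin that CGE interneurons carry, read 186, 87.1 and 86.1 CPM in members and 142, 120 and 99.6 CPM in Vip interneurons, which overlap (-0.12 log2 units, SE 0.20, adjusted p = 0.72). It had no UMI in Sst or Pvalb interneurons, where it was at least 216-fold lower. Ramp1, a partner of the CGRP receptor, read 260, 105 and 110 CPM and was higher in all 3 contrasts.

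A few genes were at or near 0 in the members. Against Vip interneurons these were Crh, Pthlh (0 UMIs against 251, at least 53.9-fold lower), the choline transporter gene Slc5a7 and the ceruloplasmin gene Cp (each 0 UMIs against 162, at least 34.8-fold lower). Against Lamp5 interneurons they were Tnnt1 (0 against 61, at least 48.8-fold lower), Caln1 (2 UMIs against 248), Tox3 (2 against 178) and the receptor gene Egfr (4 against 271). The ratios of members to Lamp5 interneurons were 0.00336 for Caln1 (counting interval 0.000404 to 0.0123) and 0.00468 for Tox3 (0.000562 to 0.0172). Against Sst and Pvalb interneurons they were Fam135b, Samd5, Tmem132c and the guidance gene Slit2, all at 0 UMIs in the members and at least 119-, 73.1-, 61.8- and 59.1-fold lower.

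Some genes among the 77 that were higher in all 3 contrasts varied little between libraries, and those described here were picked from the 77 after their values were seen, as were Neto1 and Ramp1. App, the amyloid precursor gene, read 2394, 2390 and 2306 CPM against 913 to 1285 CPM in the 12 other sums, and the log2 differences were 1.19 (SE 0.10), 1.29 (SE 0.11) and 1.11 (SE 0.09). Fabp5, a fatty acid binding protein that can carry endocannabinoids, read 862, 1152 and 1346 CPM against 102 to 332 CPM elsewhere and was higher by 1.90, 2.98 and 2.62 log2 units. Car2, a carbonic anhydrase, read 212, 224 and 267 CPM and was higher by 3.03, 3.33 and 2.81. For each of these genes the members' lowest library lay above every other sum. S100a10, the annexin partner p11, was higher in all 3 contrasts too, at 218, 247 and 252 CPM.

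Steroid hormone receptors bear on the question of estrous state. Of 7 tested genes from a list of 16 steroid receptor and metabolism genes, 0 were higher and 1 lower than in Vip interneurons, and 1 was higher and 1 lower in each of the other contrasts. Nr3c1, the glucocorticoid receptor, was the lower gene in all 3: it read 22.1, 17.8 and 28.7 CPM against 44.5 to 91.8 CPM in the other classes, with log2 differences of -1.91 (SE 0.25), -1.69 (SE 0.31) and -1.39 (SE 0.24). Nr3c2, the mineralocorticoid receptor, read 249, 449 and 362 CPM, 1.26 log2 units above Lamp5 (SE 0.23) and 2.51 above Sst and Pvalb interneurons (SE 0.18). It did not differ past the threshold from Vip interneurons (-0.18, SE 0.18, adjusted p = 0.53).

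Immediate early genes, which neurons switch on with activity and which tissue dissociation can raise, separated the members from the Vip interneurons. Of 10 tested, 0 were higher and 7 lower than in Vip interneurons, 0 and 0 against Lamp5, and 0 and 3 against Sst and Pvalb interneurons. Over all genes 6.33%, 5.03% and 6.51% were lower. The medians were -2.02, 0.00 and -0.66 log2 units. Fos read 147, 65.3 and 66.2 CPM in members against 322, 368 and 527 CPM in Vip interneurons (-2.21, SE 0.28, adjusted p = 3.2e-06), and Egr1 61.5, 23.8 and 26.5 CPM against 279, 401 and 328 CPM (-3.19, SE 0.27, adjusted p = 5.5e-09). The members lay below the Vip interneurons in every library. Of 8 late activity genes 6 were lower than in Vip interneurons, Crh and Pthlh among them, with 0 of 9 heat shock genes and 0 of 26 ribosomal protein genes called. Median depth moved with this contrast, at 24258.5 to 38070 UMIs in members and 11395 to 14604 in Vip interneurons, and its part was not tested.

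Within the 52 cells, Krt73 and Slc17a8 marked off partly nested sets. The sets were drawn after the values had been seen, so their contents are a description. Of the 52 members, 9 had at least 3 UMIs of Slc17a8 (2 in estrus, 5 in diestrus, 2 in male), 13 others had at least 3 of Krt73 (2, 4 and 7) and 30 had neither (13, 8 and 9). Of the 9 cells with Slc17a8, 8 also had Krt73, while 13 of the 21 cells with Krt73 had no such count of Slc17a8. The first and second sets were deeper, with medians of 44713 and 43490 UMIs against 24064 in the third, and the part of depth in the sets was not tested.

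Other genes followed these sets. Htr3a had at least 3 UMIs in 2 of 9 cells with Slc17a8, 1 of 13 with Krt73 and 15 of 30 with neither, although the last set was the shallowest. Reln had that many in 1 of 9, 7 of 13 and 19 of 30, and Prox1 in 0 of 9, 2 of 13 and 18 of 30. Over all 52 cells, members with a UMI of Htr3a had a median of 24064 UMIs against 34438 in those at 0, whereas for Prox1 the medians were 31800 and 28030.

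Calb1 was most common in the Krt73 set, at 9 of 13 cells against 3 of 9 and 10 of 30, and its summed level there was 1006 CPM against 67.3 and 235. Tac2 was found in 6 of 9 Slc17a8 cells, 1 of 13 Krt73 cells and 8 of 30 others, with 2591, 192 and 686 CPM. Npy had at least 3 UMIs in 7 of 9, 11 of 13 and 14 of 30. Sncg was spread over all sets, in 4 of 9, 11 of 13 and 13 of 30 cells, and Npas1 in 7, 12 and 23 cells.

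The genes of the rule also differed among the sets. Cnr1 summed to 7901 CPM in the Slc17a8 cells, 4624 in the Krt73 cells and 3546 in the others, and its lowest Slc17a8 cell at 45.0 UMIs per 10000 lay above the median of 25.0 in the cells with neither. Cck summed to 12759, 4742 and 5688 CPM, with single Slc17a8 cells from 18.3 to 311 UMIs per 10000. Gad2, one of the GABA-synthesising enzymes, ran lower in the Slc17a8 cells at 682 CPM against 1248 and 1238, and Gad1 was close at 970, 869 and 1097 CPM. The sets share libraries and, in the case of the Slc17a8 cells, 9 cells in all.

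**Figure D4:**
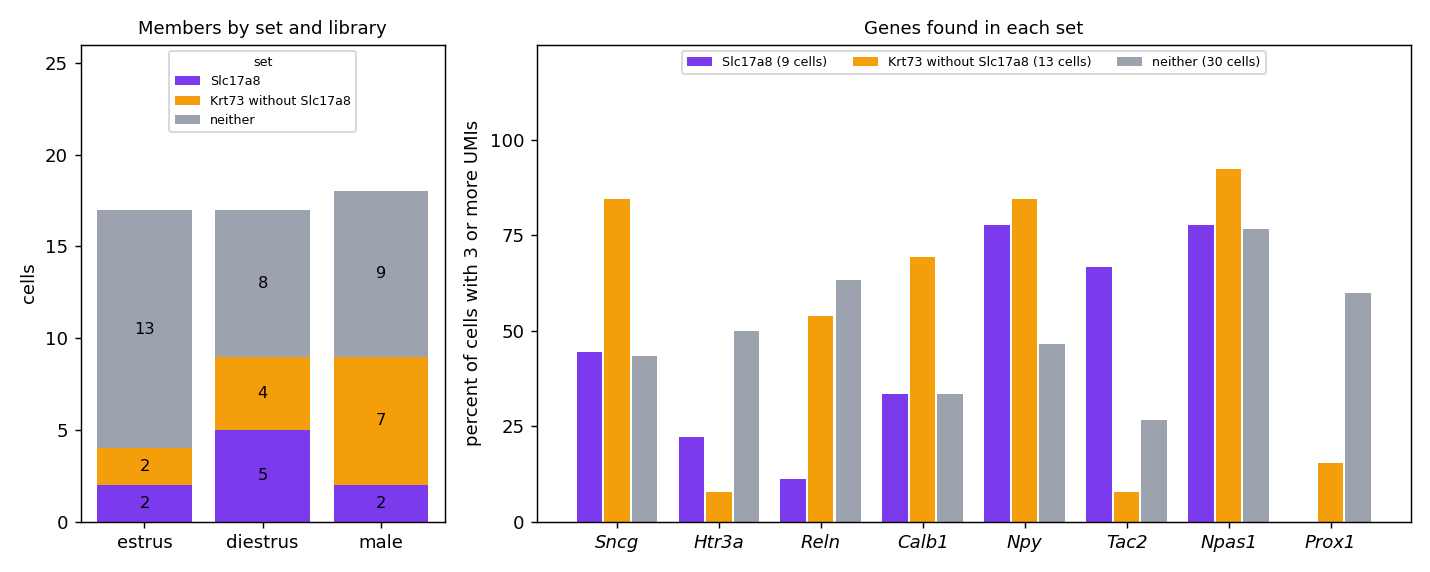
Left, number of members in each library by set (at least 3 UMIs of Slc17a8, at least 3 of Krt73 without Slc17a8, neither), stacked. Right, percent of cells of each set with at least 3 UMIs of 8 genes; Htr3a, Reln and Prox1 are commonest in the cells with neither, Calb1 in the Krt73 cells and Tac2 in the Slc17a8 cells.

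The estrous states and sexes were compared as 3 pairs of single libraries within the members. There was no replicate, so no p-value is given, and the counting intervals on ratios do not include differences between mice or preparations. Between estrus and diestrus, 117 of 4029 genes (2.9%) were more than 2-fold higher and 166 (4.12%) lower in estrus, a split that a correction for gene length turned to 111 and 78. Between estrus and male, 89 of 4026 (2.21%) were higher and 100 (2.48%) lower in estrus. Between diestrus and male, 29 of 3936 (0.737%) were higher and 24 (0.61%) lower in diestrus. Scaled by TMM or by DESeq2 size factors, the higher and lower genes were 106 and 72 or 100 and 79 for estrus against male, 138 and 148 by DESeq2 for estrus against diestrus, and 39 and 20 by DESeq2 for diestrus against male. Among members with a Sncg UMI the last pair gave 31 higher and 53 lower, and with the 3 expression sets weighted alike 65 and 35, so the balance of higher and lower genes was not stable.

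Gene length moved with these library differences. In estrus against diestrus the median log2 ratio fell from 0.39 in the shortest of 5 equal groups of genes, by span on the genome, to -0.46 in the longest group (Spearman correlation across 4029 genes -0.51, a description, as genes are not independent). Estrus against male gave 0.21 to -0.28 (-0.35) and diestrus against male -0.16 to 0.18 (0.34). Long genes were thus relatively lower in estrus members. Mitochondrially encoded RNAs moved too: all 13 were lower in estrus than in diestrus (median log2 ratio -0.51, 4 past 2-fold), and 12 of 12 counted were lower than in male (median -0.45). The part of either in single genes was not tested beyond the length correction.

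Xist, the RNA of the inactive X chromosome, and the Y-linked Ddx3y matched the library labels. Xist read 241 and 299 CPM in the estrus and diestrus members and had no UMI in male ones. Ddx3y read 130 CPM in male members, with 2 UMIs in estrus and 0 in diestrus, and may share reads with its X-linked relative Ddx3x.

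In estrus against diestrus the largest increases were Cryab, Tac2, Vgf, Cmss1 and Nfix. Cryab, a small heat shock protein gene, read 158 CPM in estrus against 19.8 in diestrus (log2 ratio 2.93, counting interval 2.06 to 4.10). Vgf, an activity-regulated granule protein gene, read 286 against 43.5 CPM (2.69, 2.07 to 3.42), with a UMI in all 17 estrus members and in 52.9% of the diestrus members; male members had 83.8 CPM. Nfix, a nuclear factor gene, read 188 against 33.6 CPM (2.45, 1.74 to 3.31).

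Tac2 was the most uneven of these genes. It read 1357 CPM in the estrus members, 188 in the diestrus members and 1026 in the male members, with log2 ratios of 2.85 for estrus against diestrus (2.54 to 3.17) and -2.44 for diestrus against male (-2.78 to -2.13). Fewer estrus members (35.3%) than diestrus members (52.9%) had a UMI of it, and one cell held 35.3% of the estrus UMIs and another 50.5% of the male ones. Without the cell with most Tac2 the ratios were 2.33 and -1.49. Single estrus members held 304, 302 and 154 of the 860 estrus UMIs, so the first ratio still included a member with 302.

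Cmss1 differed alike in every class. It read 1266 CPM in estrus against 220 in diestrus and 291 in male members (log2 ratios 2.52, 2.24 to 2.83, and 2.12, 1.85 to 2.4), and the same direction past 2-fold was seen in Vip, Lamp5, Sst and Pvalb interneurons, with 2.32 to 3.08 against diestrus. The difference was as large in those classes as in the members.

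The largest decreases in estrus were long genes. Lrrtm4, a synaptic adhesion gene spanning 791267 bases, read 439 CPM in estrus against 2260 in diestrus (-2.36, -2.56 to -2.17), and 1518 in male members. Trpm3, a cation channel gene spanning 856365 bases, read 290 against 1454 CPM (-2.32, -2.57 to -2.09). After correction for length the log2 ratios were -1.70 for Lrrtm4 and -1.65 for Trpm3, still past 2-fold. Ror1 (17.4 against 123 CPM, -2.75), Cntnap3 (20.5 against 107 CPM, -2.33) and Adamts17 (25.3 against 117 CPM, -2.17) complete the list. Cntnap3 was also lower past 2-fold in Vip (-2.99) and Lamp5 interneurons (-3.52), and Ror1 in Lamp5 interneurons (-2.99). In Vip interneurons Ror1 was higher in estrus (1.52).

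Against male members, estrus members had more Crim1 (104 against 11.03 CPM, log2 ratio 3.13, 1.94 to 4.91), Parm1 (189 against 24.3 CPM, 2.91, 2.07 to 4.00) and Zfp804b (420 against 88.3 CPM, 2.24, 1.77 to 2.77). None of these went the same way past 2-fold in another class. Some went the other way past 2-fold: Crim1 (-3.78) and Parm1 (-1.27) in Pvalb interneurons, and Zfp804b in Vip (-1.93) and Sst interneurons (-1.84). Estrus members had less Ccn3, a matricellular protein gene (11.1 against 115 CPM, -3.26, -4.76 to -2.23), Ror1 (-2.35) and Enpp2, which makes lysophosphatidic acid (52.1 against 258 CPM, -2.29, -2.91 to -1.74). In Vip interneurons Ccn3 and Ror1 were higher in estrus (1.72 and 1.52), as was Ccn3 in Lamp5 interneurons (3.15). In Pvalb interneurons Ccn3 was lower (-1.38). Enpp2 was lower in 3 other classes too, and one male cell held 39.3% of its UMIs; without that cell the ratio was -1.69.

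Diestrus and male members differed least in count of genes. Slc17a8 was higher in diestrus at 150 against 50.8 CPM (log2 ratio 1.55, 0.88 to 2.31), which goes with 5 Slc17a8 cells in diestrus and 2 in male, and with the 3 sets weighted alike the ratio was 0.65. Zfp804b (257 against 88.3 CPM, 1.53), the hemoglobin gene Hbb-bs (145 against 50.8 CPM, 1.49) and Spink10 (81.1 against 30.9 CPM, 1.36) were the other increases. Zfp804b fell to 0.89 without its top cell and to 0.32 with each barcode weighted alike. Fewer diestrus members (35.3%) than male members (55.6%) had a UMI of Zfp804b. Hbb-bs is a gene of red blood cells; one cell held 32.9% of its diestrus UMIs, its log2 ratio was -4.89 in Sst and 6.94 in Pvalb interneurons, and the part of free RNA from blood was not tested. Cryab (19.8 against 90.5 CPM, -2.14), Ccn3 (31.7 against 115 CPM, -1.83) and Ncald, a neuronal calcium sensor gene (85.1 against 260 CPM, -1.60), were lower. One male cell held 50.8% of the Ncald UMIs, and without it the ratio was -0.71, short of 2-fold.

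**Figure D5:**
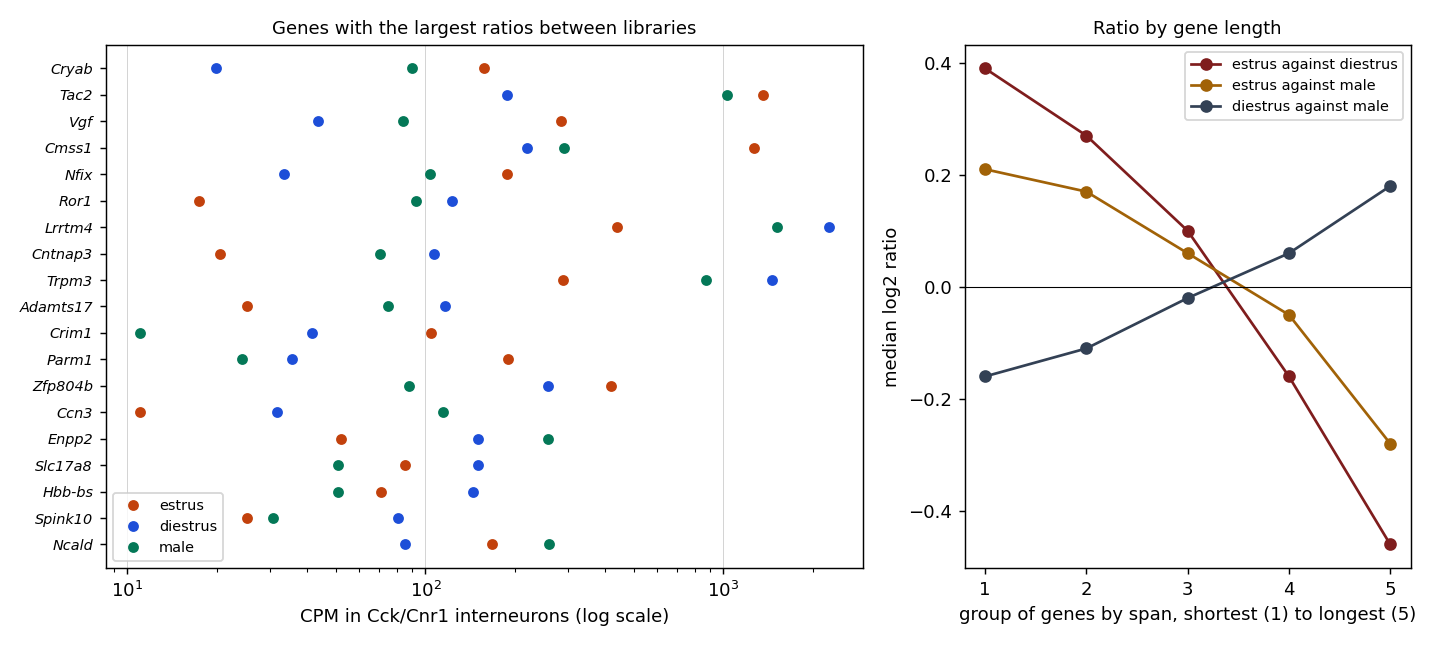
Left, CPM of the named genes in the members of each library on a log axis, without the sex-linked Xist and Ddx3y. Right, median log2 ratio in 5 groups of genes by genomic span, from shortest to longest, for the 3 library pairs; the estrus against diestrus line runs from 0.39 to -0.46.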

How the data were processed

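Droplet 3′ single-cell libraries were aligned by the authors to mm10. The submitters' processing notes give Cell Ranger 3.0.2, whereas the deposited matrices carry 7.0.0 per the file headers. The deposited values are raw UMI counts per gene and barcode (32285 genes, 14476 to 19555 barcodes and 115632520 to 152291602 UMIs a library). The members, gene lists and named genes were chosen with earlier results of these data known. Named genes were the 8 highest and 4 lowest called genes per class contrast (at least 50 CPM) and the 5 highest and 5 lowest per library pair (in at least 25% of cells), plus the markers. Some genes that meet these rules are not reported here. Other genes from the lists were picked after their values were seen.

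UMI sums of 5 classes by 3 libraries (15 sums, of unlike states but taken as replicates of a class) were tested with edgeR 4.0.16 (R 4.3.3, TMM, filterByExpr, Benjamini-Hochberg). On simulated data for the Vip contrast, 97% of genes changed by 1.5 log2 units were recovered. The changed genes were drawn from those above 50 CPM, and no difference between libraries was simulated. Recovery of lower genes and in the other contrasts was not tested. Library pairs were compared as log2(CPM + 1) ratios for genes with at least 50 UMIs and a mean of 50 CPM, with exact conditional binomial intervals (counting error only). Scrublet (scanpy 1.11.5) was read at a fixed score of 0.3 because its own limit called 705, 0 and 0 doublets; no barcode was removed. Alternatives were DESeq2 1.42.0, other filters and scalings, left-out libraries and other weightings of cells.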

Additional observations from a re-analysis of the deposited data

How the results depend on the processing

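Counts of genes called between classes stayed within 1.5 times under 42 alternative fits, including DESeq2 (722, 791 and 1041 against Vip, Lamp5, and Sst and Pvalb interneurons, beside 822, 872 and 1088). A Cnr1 limit of 10 UMIs per 10000 and the Scrublet limit of 0.3 removed no member and changed no call, so those fits say nothing on stability. The fits on members with a Sncg UMI, or without the members with Calb2 or Ndnf, were chosen after seeing the data. All these are among the 42 and among the repeats for named genes. Leaving out a library gave 636 to 873, 656 to 872 and 980 to 1114 genes. Without a filter on low counts the balance against Lamp5 interneurons turned to 585 higher and 488 lower, from 423 and 449. For the named genes 499 repeated results kept direction and call, and 4 lost the call, all with DESeq2 (Krt73 in 3 contrasts, Sln against Vip). Library pairs moved more. Genes past 2-fold for estrus against diestrus, estrus against male and diestrus against male numbered 738, 559 and 335 with a filter of 20 UMIs and 20 CPM, and 449, 303 and 173 with each barcode weighted alike, beside 283, 189 and 53. Diestrus against male gave 35 with 10 CPM added, and, in alternatives chosen after seeing the data, 84 among members with a Sncg UMI, 100 with the 3 sets weighted alike and 53 without the members with Calb2 or Ndnf. Why the pair counts moved was not tested. No named gene changed sign. The balance of higher and lower genes did turn in some settings: to 111 and 78 (from 117 and 166) with the length correction in estrus against diestrus, to 106 and 72 (from 89 and 100) with TMM in estrus against male, and to 31 and 53 (from 29 and 24) among members with a Sncg UMI in diestrus against male. No paired analysis was possible because each group has 1 library, for the comparisons of libraries; class contrasts had the library as a block, and without it called 740, 787 and 1031 genes. Precision is limited by 17 or 18 cells a library; a gene at 0 may lie under 3 counts of the summed depth.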
